A study of Mus musculus with 7 samples.

Results

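Chromatin accessibility was examined at 5 genes that brake or drive entry into the cell cycle: Cdk6, Cdkn1a, Cdkn1b, Cdkn2a and Cdkn2b. Of the 98723 peaks in the deposited table, 47 had their midpoint in 1 of 4 fixed stretches of the mm9 genome around these genes and make up the set described here. The stretches are chromosome 5 from 3300000 to 3580000 for Cdk6 (23 peaks), chromosome 17 from 29190000 to 29260000 for Cdkn1a (12 peaks), chromosome 6 from 134840000 to 134900000 for Cdkn1b (7 peaks), and chromosome 4 from 88890000 to 88970000 for Cdkn2a and Cdkn2b together (5 peaks). Peaks are numbered along the chromosome within each stretch, and "Cdkn2 peak" stands for a peak of the stretch shared by Cdkn2a and Cdkn2b.

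All 7 libraries were made by Omni-ATAC-seq from blood-forming stem cells of C57BL/6 mice. The method uses a transposase that inserts sequencing tags where chromatin is open. Donor marrow came from animals 24 months old, was enriched for cKit, and was infected either with a control lentivirus (labelled EV, 4 libraries numbered 1 to 4) or with a lentivirus that carries Runx3, which encodes a RUNX transcription factor (3 libraries numbered 1, 3 and 4). Cells of both groups then went through lethally irradiated hosts for 16 weeks, and donor cells that carried the vector were sorted as LSK, Flt3-, CD150+, CD48-, CD45.2+ and hCD2+. Both groups therefore share the aged donor, the infection and the transplantation, and no young or untransplanted cells are among them. Separate animals are not named for the libraries, so the spread between them may be partly technical.

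Cdk6 encodes a kinase that binds D-type cyclins and phosphorylates the retinoblastoma protein, which releases cells from quiescence into the cycle. Cdkn1a (p21) and Cdkn1b (p27) encode inhibitors of the Cip/Kip family, which bind cyclin-kinase complexes, and p27 is known to restrain the division of blood progenitors. Cdkn2a encodes both p16Ink4a, an inhibitor of Cdk4 and Cdk6, and p19Arf, which acts through p53, while Cdkn2b encodes p15Ink4b, a further inhibitor of Cdk4 and Cdk6. Products of Cdkn2a are widely used as markers of cellular senescence.

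No mm9 gene annotation was used, so a peak is tied to a gene only by the stretch it lies in, and whether it covers a promoter, an exon or an intron was not determined. In the RefSeq gene table the nearest coding genes are LOC545763 and Fam133b beside Cdk6, Srsf3 and Rab44 beside Cdkn1a, Gpr19 and Apold1 beside Cdkn1b, and Mtap and Dmrta1 on the outer sides of Cdkn2a and Cdkn2b. Some peaks may belong to these neighbours. The sorted cell type could not be checked against marker genes for the same reason.

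The promoters of the 5 genes are shown because the vector adds a factor that binds RUNX core letters. RefSeq lists 7 starts for the 5 genes, all matched by symbol, and the 250 bases before each start were searched for TGTGGT and TGCGGT on both strands. None of the 7 windows held either, where 18.6% of 32851 promoter windows of the same length held at least 1 (14.0% held TGTGGT and 5.10% TGCGGT). That says only that these letters are absent from these windows. The GC box letters GGGCGG, on either strand, were added as a search after these results were known. They were present in 3 of the 7 windows and in 32.7% of all windows, and neither RUNX string overlaps them. One window per gene is printed below 5′ to 3′ on the strand of the gene, from the RefSeq table in GRCm38.p6, with GGGCGG in capitals. For Cdkn1a and Cdkn2a the listed start with GC boxes is given. These coordinates are of another build than the peaks and cannot be laid over them.
Cdk6 (chr5:3343643-3343892, + strand): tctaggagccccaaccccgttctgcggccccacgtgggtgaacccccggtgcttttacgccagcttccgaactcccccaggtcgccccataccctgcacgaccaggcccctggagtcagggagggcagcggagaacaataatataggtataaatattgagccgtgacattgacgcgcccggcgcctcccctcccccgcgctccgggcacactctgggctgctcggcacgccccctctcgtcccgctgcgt
Cdkn1a (chr17:29093519-29093768, + strand): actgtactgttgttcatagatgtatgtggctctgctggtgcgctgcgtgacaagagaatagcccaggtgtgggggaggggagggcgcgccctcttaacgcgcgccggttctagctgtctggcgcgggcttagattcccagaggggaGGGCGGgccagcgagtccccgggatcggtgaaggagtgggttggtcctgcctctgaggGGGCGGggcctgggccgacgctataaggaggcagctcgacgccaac
Cdkn1b (chr6:134920151-134920400, + strand): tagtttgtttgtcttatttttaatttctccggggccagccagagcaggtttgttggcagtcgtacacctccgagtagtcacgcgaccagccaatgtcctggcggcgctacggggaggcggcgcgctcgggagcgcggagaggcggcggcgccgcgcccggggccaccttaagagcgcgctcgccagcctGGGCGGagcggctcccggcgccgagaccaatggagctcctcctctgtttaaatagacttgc
Cdkn2a (chr4:89294620-89294869, - strand): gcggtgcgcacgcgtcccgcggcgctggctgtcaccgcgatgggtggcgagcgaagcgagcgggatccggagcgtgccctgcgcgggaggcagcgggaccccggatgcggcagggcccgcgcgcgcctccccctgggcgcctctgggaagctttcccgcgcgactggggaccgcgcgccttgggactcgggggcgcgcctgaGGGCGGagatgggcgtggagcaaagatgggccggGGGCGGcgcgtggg
Cdkn2b (chr4:89311033-89311282, - strand): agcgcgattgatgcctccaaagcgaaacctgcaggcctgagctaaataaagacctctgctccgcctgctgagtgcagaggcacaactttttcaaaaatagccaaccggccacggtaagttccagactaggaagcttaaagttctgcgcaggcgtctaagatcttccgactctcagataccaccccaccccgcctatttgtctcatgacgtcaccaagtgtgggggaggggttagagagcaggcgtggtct

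The Cdkn2a window was the richest in G and C, at 78.4%, and the Cdkn2b window the poorest of the 5 at 53.6%, close to the median of 52.4% over all windows. Of the sequences shown, those of Cdk6 and Cdkn2b held no GC box, that of Cdkn1b held 1, and those of Cdkn1a and Cdkn2a held 2 each. The last 2 were picked for their GC boxes. The other listed starts of Cdkn1a and Cdkn2a, not shown, had 54.0% and 60.0% G and C and held 0 GC boxes.

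Libraries held between 1738164 and 3758422 counts, and every Runx3 library was shallower than control libraries 2, 3 and 4. Levels are given in CPM, counts scaled to library size by the TMM method, and 3 counts correspond to between 0.793 and 1.71 CPM. Control 1, control 2 and Runx3 1 (set 1) stood at least 8-fold apart from the other 4 libraries (set 2) at 57 peaks. Both directions were counted, with 0.5 CPM added, and no other division gave more than 2. These peaks held at least 0.138% of the counts in each set 1 library and at most 0.0034% in each set 2 library. None of the 47 peaks is among these 57, and values within each set are given beside the results they touch.

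Accessibility at the cell-cycle loci differed little between cells with the Runx3 vector and control cells, and no peak passed the test. Of the 47 peaks, 28 had enough reads to be tested, and 0 were called higher and 0 lower (edgeR quasi-likelihood test, adjusted p under 0.05 over all 57504 tested peaks). Among all tested peaks 0.033% were called higher and 0.04% lower, 0.073% in all, so a set of 28 would seldom hold a call at that rate. At an unadjusted p under 0.05 there was 1 higher peak (3.91% of all tested peaks) and there were 2 lower peaks (4.4%), where either direction makes up 8.31% of the table. With DESeq2 no peak of the 28 was called (1 was given no adjusted p), where 0.0104% of tested peaks were. At an unadjusted p under 0.05 DESeq2 had 0 higher (1.88% of all tested peaks) and 1 lower (1.96%). The shares at these loci are near those of the table.

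**Figure D1:**
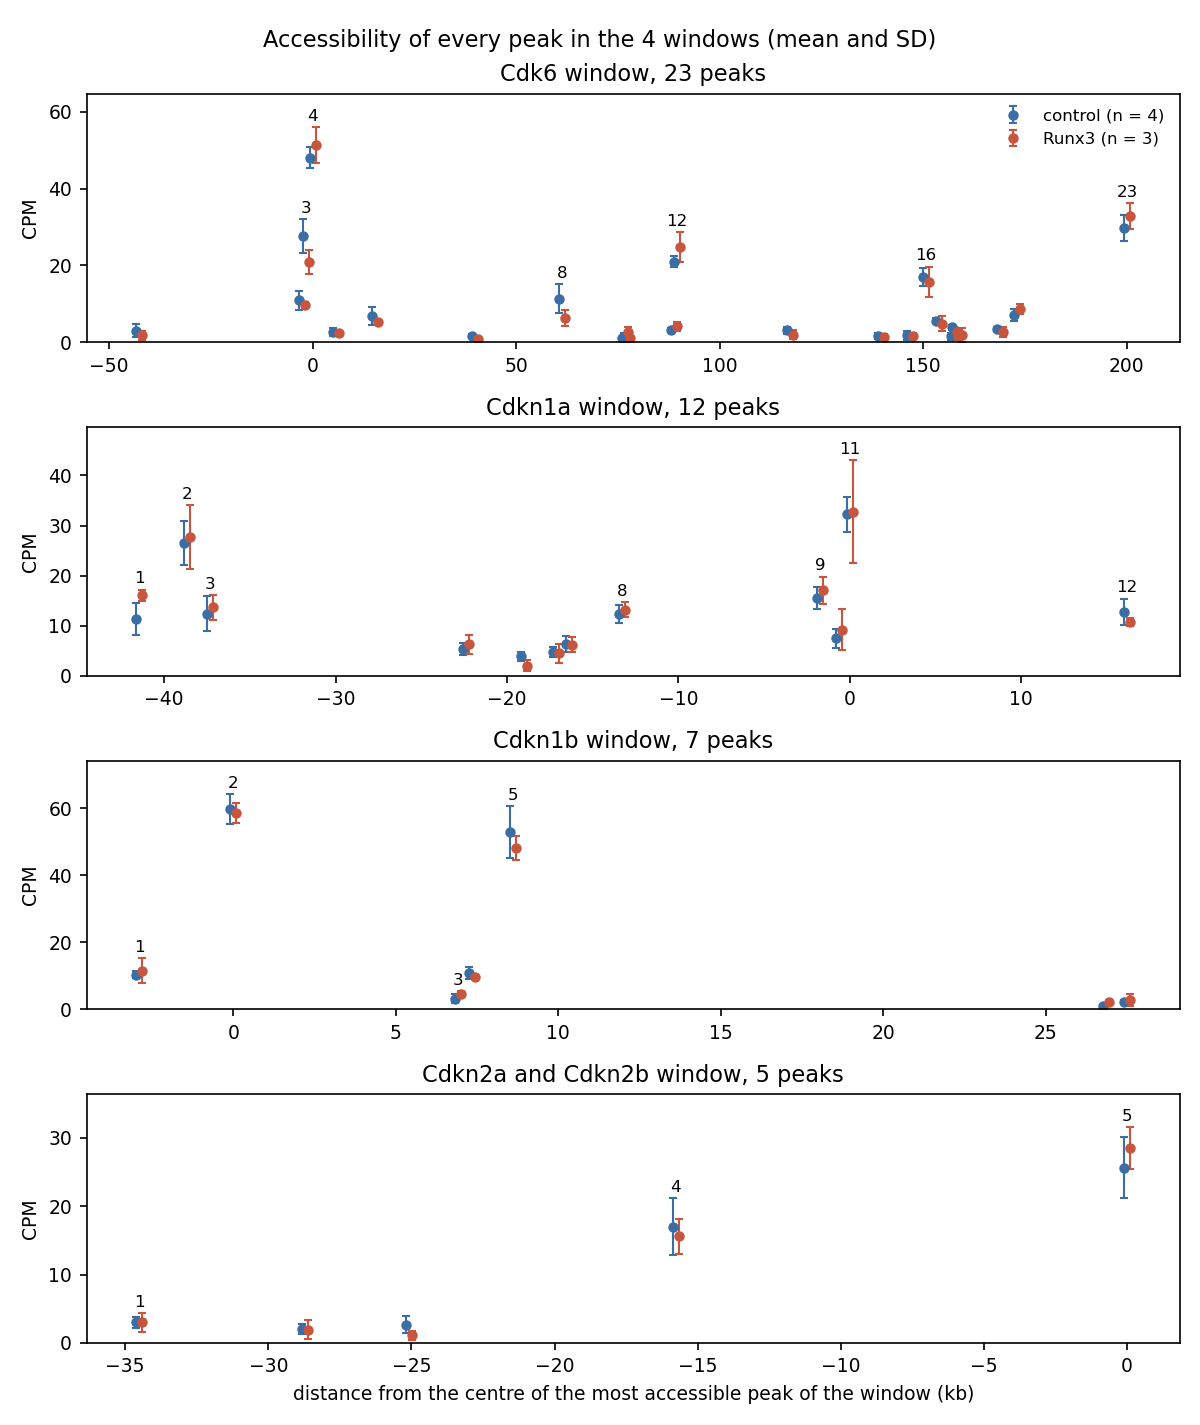
Accessibility of each of the 47 peaks in CPM (vertical axis) against its distance in kb from the centre of the most accessible peak of its stretch (horizontal axis), as mean and SD for control (blue, n = 4) and Runx3 (red, n = 3), drawn slightly apart, with numbers on the taller and the named peaks. The pairs of points lie close together at the tallest peaks, and among tested peaks the smallest p-values were at Cdk6 peaks 8 and 3 and Cdkn1a peak 1, none of which passed the test.

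The estimates bound how large a change could have been at the better covered peaks. Over the 28 tested peaks the log2 fold changes ran from -0.81 to 0.59, with a median of 0.05 against -0.01 for all tested peaks. The fitted change was below 0 in 12 of 28 peaks, where 51.2% of all tested peaks were below 0. The 95% intervals, taken peak by peak without adjustment, lay wholly inside a 2-fold change in either direction for 26 peaks and inside a 1.5-fold change for 13. The exceptions to the first were Cdk6 peak 8 and Cdkn1b peak 3. Half-widths of the intervals ran from 0.24 to 0.82 on the log2 scale, the wider ones at peaks with few reads.

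**Figure D2:**
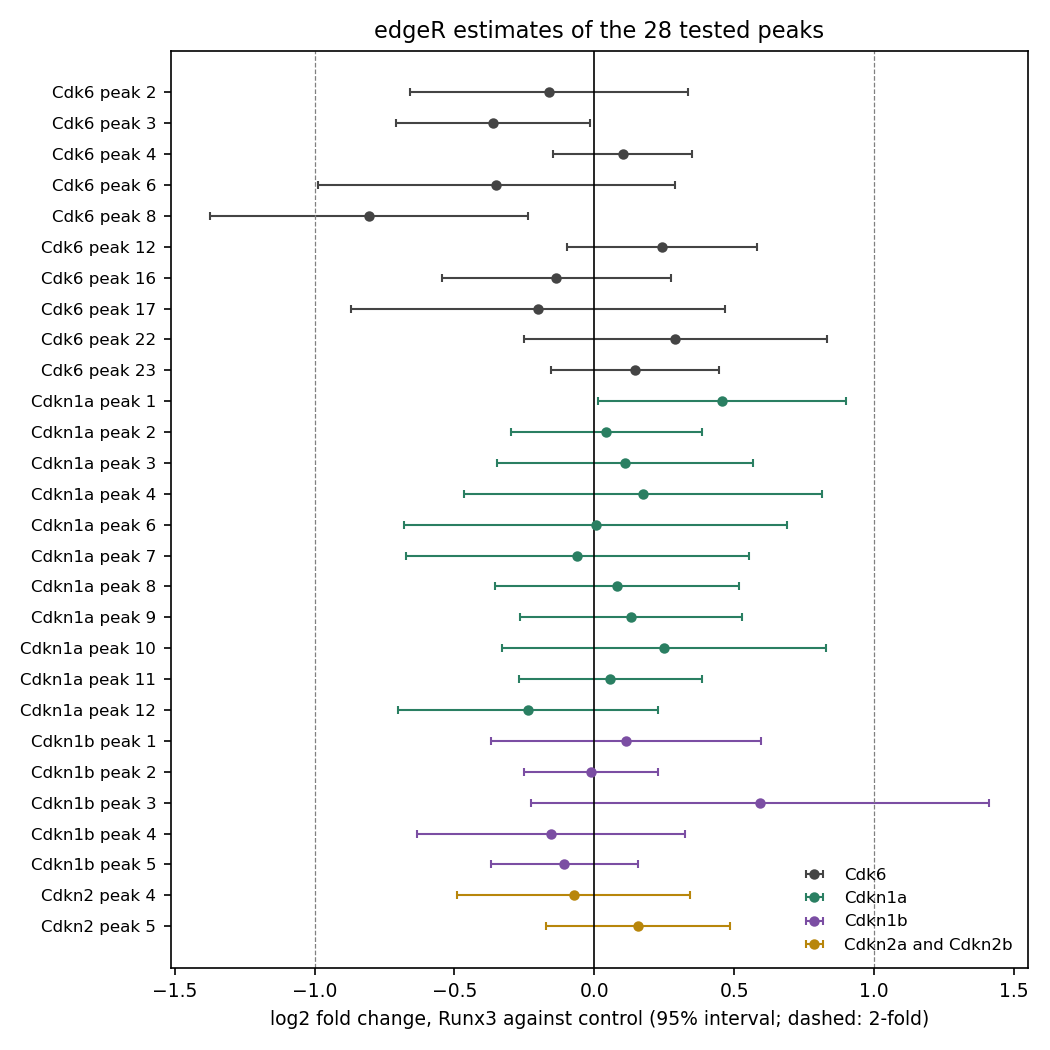
Log2 fold change of Runx3 against control (horizontal axis, points) with its 95% interval (bars) for the 28 tested peaks, coloured by stretch, with dashed lines at a 2-fold change. Intervals of 25 peaks include 0, and those of Cdk6 peaks 3 and 8 and Cdkn1a peak 1 do not.

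Summed over all peaks of a stretch, the level hardly differed between the groups at any of the 4 loci. These sums carry no test. The Cdk6 stretch held 217 ± 7.99 CPM in controls (SD, n = 4) and 207 ± 9.40 CPM with Runx3 (SD, n = 3), a log2 ratio of -0.06. Cdkn1a had 151 ± 11.1 CPM in controls and 159 ± 19.2 CPM with Runx3, a log2 ratio of 0.08. At Cdkn1b the sums were 140 ± 13.1 and 137 ± 5.49 CPM, a log2 ratio of -0.03. In all 3 cases the libraries of the groups overlapped.

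The shared stretch of Cdkn2a and Cdkn2b, which encodes the senescence-associated inhibitors, had 50.4 ± 5.76 CPM in controls and 50.1 ± 5.44 CPM with Runx3, a log2 ratio of -0.01. Its highest libraries were control 1 (58.4 CPM) and Runx3 1 (56.4 CPM), and its lowest was control 2 (44.7 CPM). The order of the libraries was different at each locus. Control 1 was lowest at Cdkn1a (136 CPM) and highest at Cdkn1b (157 CPM) and at Cdkn2a and Cdkn2b. Control 2 was highest at Cdk6 (228 CPM) and Runx3 3 at Cdkn1a (179 CPM), while Runx3 4 was lowest at Cdk6 (200 CPM).

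The spread between libraries was of the size of counting error at some loci and above it at others. The Cdk6 sums rested on 359 to 807 reads per library, whose counting error alone is 5.28% to 3.52%, and they varied by 3.69% among controls and 4.53% among Runx3 libraries. The Cdkn1a sums varied by 7.33% and 12.0%, on 278 to 606 reads with a counting error of 6.00% to 4.06%. At Cdkn1b, on 239 to 509 reads with a counting error of 6.47% to 4.43%, the controls varied by 9.36% and the Runx3 libraries by 4.01%. At Cdkn2a and Cdkn2b only 99 to 187 reads were available per library, with a counting error of 10.1% to 7.31% and an observed spread of 11.4% and 10.8%. Counts carry no molecular identifiers, so these errors cover counting only.

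**Figure D3:**
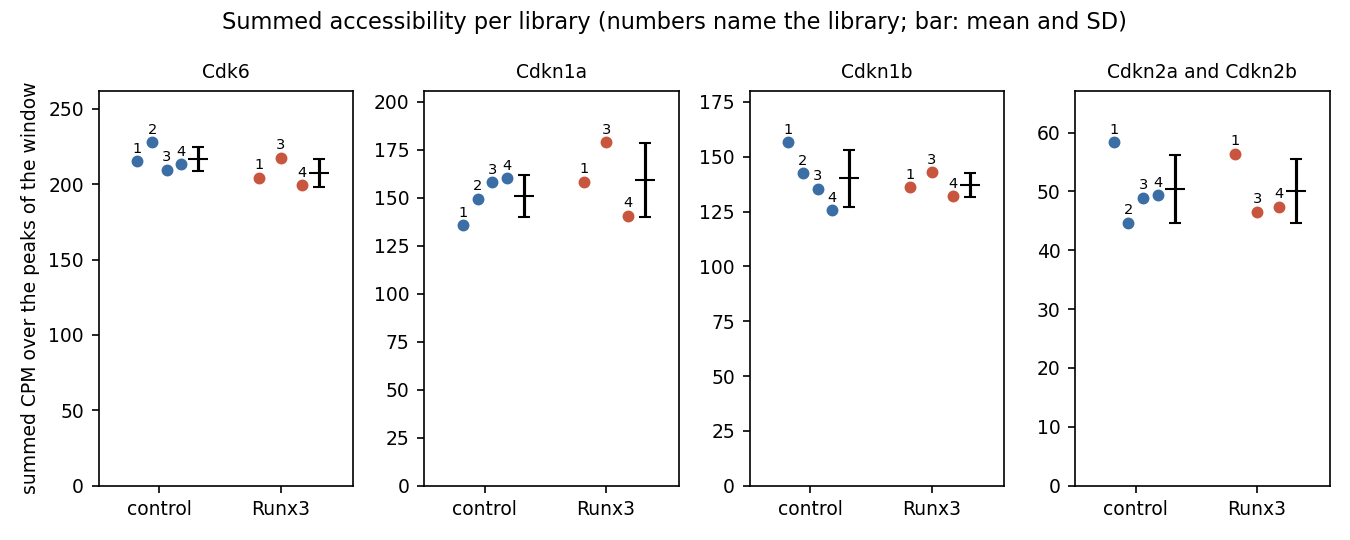
Summed CPM over the peaks of each stretch (vertical axis, from 0) for every control library (blue) and Runx3 library (red), each point named by its library number, with the group mean and SD as a bar. The groups overlap at all 4 loci, and Runx3 3 stands highest at Cdkn1a with 179 CPM.

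Within the library sets the log2 ratios of the sums were -0.12 in set 1 and -0.02 in set 2 for Cdk6, 0.15 and 0.01 for Cdkn1a, -0.14 and 0.07 for Cdkn1b, and 0.13 and -0.07 for Cdkn2a and Cdkn2b. At Cdkn1b and at the Cdkn2 stretch the sign thus differed between the sets. Set 1 has a single Runx3 library, and the difference between the sets was not tested.

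The 4 stretches differed in how their open chromatin was arranged. Their limits are fixed at 280 kb for Cdk6, 70 kb for Cdkn1a, 60 kb for Cdkn1b and 80 kb for Cdkn2a and Cdkn2b. They hold 23, 12, 7 and 5 peaks, so densities and shares of the sum depend on these limits and describe the stretches only. Per kb of peak, the mean level over all libraries was 32.4 CPM at Cdkn1b, 27.3 at Cdkn1a, 17.8 at Cdk6 and 14.7 at Cdkn2a and Cdkn2b. Peaks were densest around Cdkn1a, at 17.1 per 100 kb, against 11.7 at Cdkn1b, 8.21 at Cdk6 and 6.25 at Cdkn2a and Cdkn2b. A pair of peaks held most of the signal at Cdkn1b (79.2% of the sum) and at Cdkn2a and Cdkn2b (86.1%). At Cdk6 and Cdkn1a the 2 highest peaks held 37.9% and 38.5%, the remainder being spread over many sites.

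Of the 47 peaks, 4 were at least 1200 bases wide (8.51%, against 5.21% of all peaks in the table). They are Cdk6 peaks 3 and 4, Cdkn1b peak 2 and Cdkn2 peak 4. Among tested peaks, 8 of 28 lay above the 80th percentile of level over all tested peaks.

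Cdk6, the kinase gene, had the most peaks and the only lower ones at an unadjusted p under 0.05. Its most accessible site, Cdk6 peak 4 (chromosome 5, 3343045 to 3344719), read 44.2, 49.0, 49.0 and 50.2 CPM in control libraries 1 to 4 and 46.1, 55.5 and 52.4 CPM in Runx3 libraries 1, 3 and 4. The groups overlapped, and the log2 fold change was 0.10 ± 0.12 (SE, interval -0.15 to 0.35, edgeR adjusted p = 0.90). It stood at the 94.0th percentile of level among tested peaks.

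Immediately beside it, with centres 1564 bases apart, Cdk6 peak 3 (3341690 to 3342946) read 33.2, 29.3, 24.2 and 23.8 CPM in controls and 18.8, 24.5 and 19.4 CPM with Runx3. Runx3 1 and Runx3 4 lay below every control, while Runx3 3 lay among the lower controls. Its log2 fold change was -0.36 ± 0.17 (SE, interval -0.71 to -0.02), with an unadjusted p of 0.041 and an edgeR adjusted p of 0.57. Within set 1 the value was -0.73 and within set 2 -0.13, and without control 1 it was -0.27. Controls 1 and 2, which belong to set 1, had the highest levels.

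Cdk6 peak 8 (3404768 to 3405565), 61.3 kb from peak 4, had the smallest p of the 28. It read 8.55, 16.8, 11.2 and 8.99 CPM in controls, or 18, 47, 42 and 34 reads, and 3.99, 6.99 and 7.84 CPM with Runx3, or 7, 18 and 19 reads. Every Runx3 library lay below every control, as in 4.69% of all tested peaks (8.9% with either order), and it was the only tested peak of the 47 with that pattern. Means were 11.4 ± 3.79 CPM (SD, n = 4) and 6.27 ± 2.02 CPM (SD, n = 3). On the log2 scale the fitted fold change was -0.81 ± 0.28 (SE, interval -1.37 to -0.24), or 1.75-fold lower.

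The peak did not pass the test, with an unadjusted p of 0.0067 and an edgeR adjusted p of 0.34. Its adjusted p ran from 0.14 to 1.0 over the alternatives, the lowest of them without control 1. The log2 fold change was -1.69 in set 1 and -0.44 in set 2, and -0.58 without control 2, the library with the highest level. With the replicate number as a block it was -0.57 (edgeR adjusted p = 0.67). No Runx3 library has the number 2, so control 2 adds nothing to the difference in that fit. The 2 checks are therefore nearly the same. Since the groups do not overlap, its sign in each set was fixed.

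Cdk6 peak 23 (3543583 to 3544369), the other site of high level in this stretch, lies 200 kb from peak 4, on the side where the RefSeq table places Fam133b. It read 33.7, 25.7, 28.7 and 30.9 CPM in controls and 36.5, 32.6 and 29.7 CPM with Runx3. The groups overlapped, and the log2 fold change was 0.15 ± 0.15 (SE, edgeR adjusted p = 0.87). Per kb it was the most accessible Cdk6 peak, at 39.6 CPM against 29.6 for peak 4 and 19.7 for peak 3.

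The other 19 Cdk6 peaks had mean levels between 1.23 and 22.6 CPM, and 6 of them were tested. Their log2 fold changes ran from -0.35 to 0.29, and the smallest unadjusted p was 0.16. The highest of them, Cdk6 peak 12, had 20.9 ± 1.40 CPM in controls and 24.8 ± 3.96 CPM with Runx3. The other 13 were below the read minimum. Among these, Cdk6 peak 19 (3501595 to 3501982) had 9, 13, 14 and 12 reads in controls and 2, 8 and 2 with Runx3, or 3.95 ± 0.645 against 1.69 ± 1.24 CPM, and Cdk6 peak 9 had the opposite pattern with at most 7 reads in any library. Peak 19 was singled out after its values were seen, and without the read minimum its log2 fold change was -1.12 ± 0.47 (SE, edgeR adjusted p = 0.51).

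Cdkn1a, the p21 gene, was the locus where most fitted changes were above 0. Of its 11 tested peaks 9 were positive and 2 negative, with a median log2 fold change of 0.08. The count was 9 of 11 under the other scalings, 8 in set 1 alone, 4 in set 2 alone and 6 without Runx3 3. None passed the test, and the peaks share libraries, so these counts are a description. The most accessible site was Cdkn1a peak 11 (chromosome 17, 29232110 to 29232743). It read 35.6, 32.2, 27.4 and 33.8 CPM in controls and 26.8, 44.6 and 26.8 CPM with Runx3. Runx3 3 was the highest of all libraries and the other Runx3 libraries the lowest, so the group means, 32.3 ± 3.52 and 32.7 ± 10.3 CPM, hide a wide spread. The log2 fold change was 0.06 ± 0.16 (SE, edgeR adjusted p = 0.97), and without Runx3 3 it was -0.25.

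Cdkn1a peak 9 (29230507 to 29230855), with its centre 1.75 kb from that of peak 11, read 16.1, 12.9, 14.9 and 18.2 CPM in controls and 17.7, 19.4 and 14.0 CPM with Runx3. The groups overlapped (log2 fold change 0.13 ± 0.20, SE, edgeR adjusted p = 0.93). Per kb of peak, these neighbours were the most accessible of the stretch, at 51.3 CPM for peak 11 and 46.5 CPM for peak 9.

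A second group of open sites lay at the lower end of the stretch, on the side where the RefSeq table places Srsf3. Its tallest member, Cdkn1a peak 2 (29193341 to 29194206), read 19.9, 27.5, 29.8 and 28.8 CPM in controls and 29.6, 33.0 and 20.6 CPM with Runx3. Control 1 and Runx3 4 were low and the groups overlapped, with a log2 fold change of 0.04 ± 0.17 (SE, adjusted p = 0.98 in edgeR).

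Cdkn1a peak 1 (29190761 to 29191197), 41.4 kb from peak 11, was the only higher peak at an unadjusted p under 0.05. It read 6.65, 12.2, 12.5 and 14.0 CPM in controls and 17.1, 16.3 and 14.8 CPM with Runx3. Every Runx3 library lay above every control, as in 4.2% of all tested peaks, and the gap between Runx3 4 and control 4 was narrow. The log2 fold change was 0.46 ± 0.22 (SE, interval 0.01 to 0.90), or 1.37-fold, with an unadjusted p of 0.044 and an edgeR adjusted p of 0.58.

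Control 1, with 14 reads, was below the other controls at this peak, and without it the log2 fold change was 0.31 (unadjusted p = 0.13). Within the sets it was 0.82 and 0.23. Adding each library's total count to the fit gave 0.76 (edgeR adjusted p = 0.33).

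Cdkn1a peak 12 (29248276 to 29248921), on the other side of the tallest peak, read 12.8, 12.2, 16.2 and 9.78 CPM in controls and 10.3, 11.6 and 10.3 CPM with Runx3, a log2 fold change of -0.24 ± 0.23 (SE, adjusted p = 0.86 in edgeR). Its Runx3 libraries lay inside the range of the controls. The other 7 peaks of the stretch had mean levels from 3.06 to 12.9 CPM, and the 6 tested among them had log2 fold changes from -0.06 to 0.25.

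Cdkn1b, the p27 gene, had the site with the most reads of the 4 loci, in CPM over the whole peak. Per kb, its peaks 2 and 5 had 43.6 and 48.2 CPM, where Cdkn1a peak 11 had 51.3. Cdkn1b peak 2 (chromosome 6, 134869489 to 134870847) was at the 96.2th percentile of all tested peaks. It read 64.1, 59.7, 61.5 and 53.4 CPM in controls and 55.8, 61.7 and 58.2 CPM with Runx3. All Runx3 libraries lay within the control range. The means were 59.7 ± 4.56 CPM (SD, n = 4) and 58.6 ± 2.97 CPM (SD, n = 3). On the log2 scale they differed by -0.01 ± 0.12 (SE, adjusted p = 0.99 in edgeR). The interval from -0.25 to 0.23 is the narrowest of the 28.

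Cdkn1b peak 5 (134878258 to 134879310), 8.62 kb away, read 62.2, 56.1, 47.1 and 45.7 CPM in controls and 44.4, 51.6 and 47.8 CPM with Runx3. Controls 1 and 2 were the highest, and the Runx3 libraries lay near controls 3 and 4. The log2 fold change was -0.11 ± 0.13 (SE, interval -0.37 to 0.16, edgeR adjusted p = 0.90), with -0.41 in set 1 and 0.10 in set 2.

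The smaller Cdkn1b sites varied more. Cdkn1b peak 1 (134867122 to 134867419) read 9.02, 10.4, 10.1 and 11.6 CPM in controls and 15.4, 11.3 and 7.84 CPM with Runx3, so that Runx3 libraries were both highest and lowest. Its log2 fold change was 0.11 ± 0.24 (SE, edgeR adjusted p = 0.96). Cdkn1b peak 3 (134876919 to 134877227) read 5.22, 2.86, 2.39 and 2.38 CPM in controls and 3.42, 5.05 and 4.95 CPM with Runx3, from 6 to 13 reads per library. Control 1 stood above every Runx3 library there. The log2 fold change, 0.59 ± 0.41 (SE, interval -0.23 to 1.41, edgeR adjusted p = 0.76), was the largest positive value of the 28 and the least certain. Within set 1 it was -0.20 and within set 2 1.06, and without control 1 the peak fell below the read minimum. The remaining 3 peaks had mean levels from 1.504 to 10.3 CPM, and Cdkn1b peak 4, tested among them, had a log2 fold change of -0.15.

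At Cdkn2a and Cdkn2b only 2 of the 5 peaks had enough reads to be tested, and both were open in every library. The RefSeq table places Cdkn2a before Cdkn2b along chromosome 4. Cdkn2 peak 5 (88956366 to 88957253) was the higher of the pair and read 30.9, 20.02, 26.1 and 25.6 CPM in controls and 31.3, 25.2 and 28.9 CPM with Runx3. The groups overlapped, control 2 being the lowest library, with a log2 fold change of 0.16 ± 0.16 (SE, interval -0.17 to 0.48, edgeR adjusted p = 0.88).

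Cdkn2 peak 4 (88940301 to 88941774), with its centre 15.8 kb from that of peak 5, read 22.8, 17.2, 14.1 and 14.0 CPM in controls and 15.4, 18.2 and 13.2 CPM with Runx3. Control 1 was the highest and the groups overlapped, with a log2 fold change of -0.07 ± 0.21 (SE, interval -0.49 to 0.34, edgeR adjusted p = 0.97). Peak 4 is the wider of the pair, 1473 bases against 887, and per kb it was the less accessible, at 11.1 CPM against 30.3.

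The other Cdkn2 peaks were near the limit of what the depth can show. Cdkn2 peak 1 (88922118 to 88922493) read 1.90, 3.22, 3.19 and 3.70 CPM in controls and 4.56, 1.94 and 2.47 CPM with Runx3, or 4 to 14 reads per library, and its groups overlapped. Cdkn2 peak 3 (88931547 to 88931903), singled out after its values were seen, had 2, 8, 15 and 11 reads in controls and 3, 1 and 3 with Runx3, or 2.68 ± 1.26 against 1.11 ± 0.669 CPM. Control 1 lay below Runx3 1, so the groups overlapped. Without the read minimum its log2 fold change was -1.41 ± 0.58 (SE, unadjusted p = 0.019, edgeR adjusted p = 0.50). Its Runx3 mean is below the level of 3 counts in every Runx3 library, so the size is poorly fixed.

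**Figure D4:**
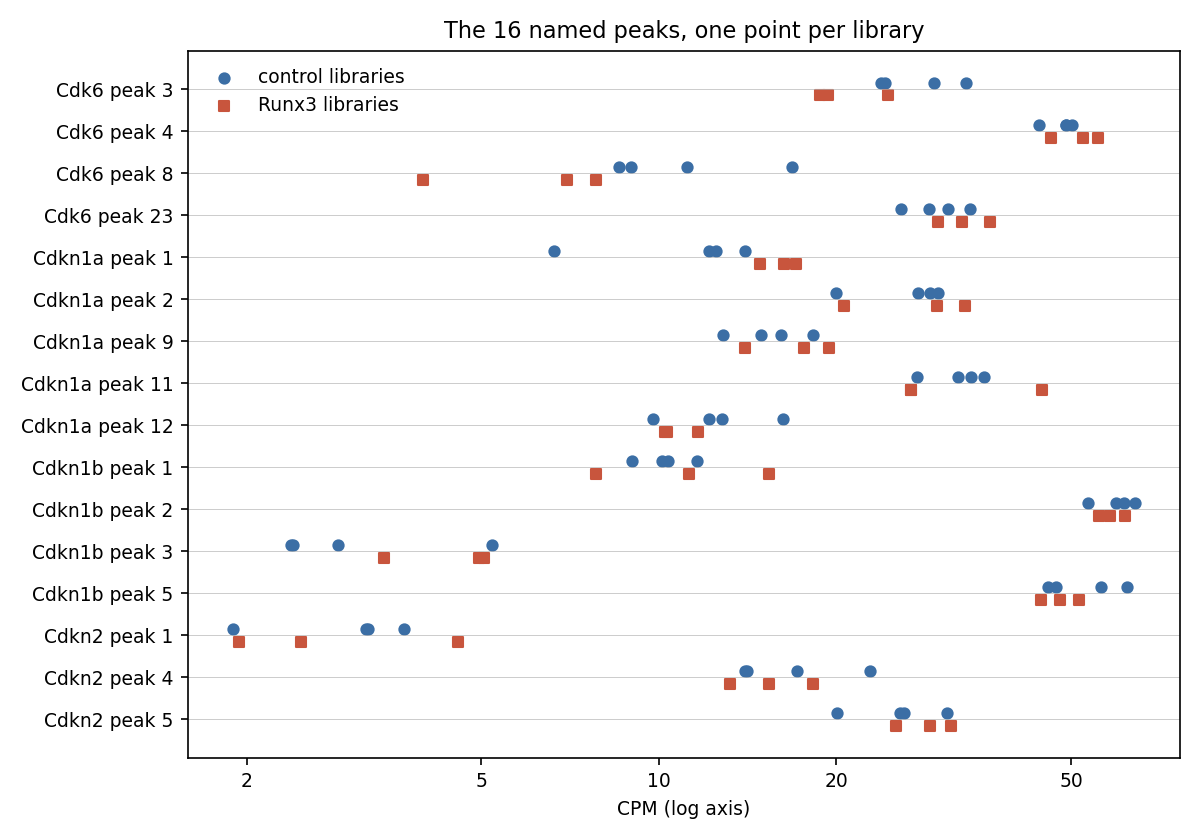
Level in CPM (horizontal log axis) of the 16 named peaks in every control library (blue circles) and Runx3 library (red squares). The groups separate at Cdk6 peak 8, where Runx3 libraries read 3.99 to 7.84 CPM, and at Cdkn1a peak 1, where they read 14.8 to 17.1 CPM, and overlap at the other 14. Some peaks were named for a small p, which favours separation, and the groups separate at 8.9% of all tested peaks.

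Of the 19 peaks below the read minimum, whose mean levels ran from 1.23 to 3.61 CPM, 2 had every Runx3 library above every control (4.38% of all 41219 peaks below the minimum) and 1 had every Runx3 library below (3.69%). Fitted without the read minimum, so that all 47 peaks were tested, 0 were called by edgeR, where 0.0739% of all peaks were. At an unadjusted p under 0.05, 2 were higher (3.95% of all peaks) and 4 lower (4.02%). Total counts were lower in the Runx3 group, and the part of depth in these low peaks was not tested.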

How the data were processed

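The authors deposited unnormalized counts of reads in 98723 peaks of 7 libraries, on mm9. The submitters' processing notes name MACS2, Picard, SAMtools, Bowtie2, FastQC and Trim Galore. Versions, roles, the making of the shared peak set and any transposase shift were not given in the sources used here. Whether starts count from 0 or 1 is not stated.

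The test was run in edgeR 4.0.16 (R 4.3.3). FilterByExpr (minimum count 10, minimum total 15) kept 57504 peaks with 91.6% of counts, libraries were scaled by TMM, and the robust quasi-likelihood test compared the vectors over all 7 libraries. Benjamini-Hochberg adjustment ran over the whole table, with a threshold of 0.05. The SE is the log2 fold change divided by the square root of F, and 95% intervals use it, so both are approximate. DESeq2 1.42.0 was an alternative. The code was tested on simulated data.

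The loci, lists and alternatives were chosen with earlier results of these data known. Named peaks are, per stretch, the 3 with the highest mean level, the 2 tested with the smallest p, and any called. Other cell-cycle genes were not analysed here for want of an mm9 annotation.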

Additional observations from a re-analysis of the deposited data

Results flagged for a closer look

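Cdkn1b peak 3 stood out in control 1, which read 5.22 CPM (11 reads) where the other controls read between 2.38 and 2.86 CPM. Its gap took 0.831 of the range of the 4 controls. Among 20 values checked, this was the 1 that stood out, which is the number chance gives at 1 in 20.

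Below the read minimum, every Runx3 library lay above every control at Cdk6 peak 9 (chromosome 5, 3420462 to 3420740) and Cdkn1b peak 6 (chromosome 6, 134896864 to 134897172). Cdk6 peak 9 had 3, 4, 3 and 3 reads in controls and 7, 6 and 4 with Runx3, or 1.11 ± 0.365 against 2.66 ± 1.20 CPM. Cdkn1b peak 6 had 3, 3, 2 and 4 reads in controls and 5, 5 and 4 with Runx3, or 1.02 ± 0.368 against 2.15 ± 0.625 CPM. Fitted without the read minimum, neither passed (edgeR adjusted p = 0.58 and 0.69). Every Runx3 library was above every control in 4.38% of the 41219 peaks below the read minimum.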

How the results depend on the processing

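No tested peak of the 4 loci was called, higher or lower, in any of the 16 alternatives, leaving out each library included, and all 47 peaks stayed members by any overlap. At an unadjusted p under 0.05, the alternatives gave 0 to 2 higher and 0 to 4 lower. With the library set as a term in the edgeR fit there were 0 higher and 1 lower, where 8.46% of all tested peaks were past that limit. The unadjusted p in that fit was 0.0097 at Cdk6 peak 8, 0.070 at Cdk6 peak 3 and 0.061 at Cdkn1a peak 1. The sums per stretch moved by less than the spread between libraries in every alternative tried. Their log2 ratios were small, and the sign was the opposite in 6 of 13 alternatives at Cdkn2a and Cdkn2b. It was the opposite in 2 at Cdkn1b, 1 at Cdkn1a and 0 at Cdk6. Over the whole table the 19 higher and 23 lower calls became 41 higher without the read minimum, 33 and 51 with a covariate for total count, 9 higher in set 1 alone, 36 lower in set 2 alone, and 5 and 1 with DESeq2. Leaving out 1 library gave 0 to 73 higher and 0 to 194 lower, with 0 and 0 without control 2 or Runx3 1 (3739 and 4475 at an unadjusted p under 0.05 in edgeR), 4 and 1 without control 3, 37 higher without control 4, 4 lower without Runx3 3, 5 and 2 without Runx3 4, and the most without control 1. The cause was not tested.

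A fit blocked by replicate number called 30 higher and 71 lower over the whole table, and 0 of the 28 tested at these loci were called (1 higher and 0 lower at an unadjusted p under 0.05 in edgeR, where 7.58% of all tested peaks were past it in either direction). Deviations from the group means correlated at 0.12, 0.099 and 0.066 between same-numbered libraries. Differently numbered libraries were not compared in this way, so these values cannot decide whether the numbers mark pairs. The labels do not say what the numbers mark, and the main fit did not use them as pairs. In the blocked fit control 2, whose number no Runx3 library shares, adds nothing to the difference.

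Several log2 fold changes of the named peaks, none of them called, changed sign. In set 1 alone these were Cdk6 peak 4 (-0.016), Cdkn1a peak 11 (-0.33) and Cdkn1b peak 3 (-0.20). In set 2 alone they were Cdkn1a peak 2 (-0.12), Cdkn1b peaks 1 (-0.18), 2 (0.064) and 5 (0.10) and Cdkn2 peak 4 (0.17). Peaks that were not named also changed sign. At Cdkn1a, 4 of 11 tested peaks were positive in set 2 alone, against 9 of 11 in the main fit. Without TMM, Cdkn1b peak 2 was at 0.0024. Leaving out 1 library, the values ran from -0.12 to 0.23 for Cdkn1a peak 2, -0.25 to 0.19 for Cdkn1a peak 11, -0.11 to 0.33 for Cdkn1b peak 1, -0.065 to 0.023 for Cdkn1b peak 2 and -0.21 to 0.073 for Cdkn2 peak 4.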

Other observations

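The neighbouring Cdk6 peaks 3 and 4 were also compared as a ratio of reads within each library, which needs no scaling. The ratio was chosen after the values were seen and carries no test. Peak 3 had 0.753, 0.599, 0.495 and 0.474 times the reads of peak 4 in control libraries 1 to 4, and 0.407, 0.441 and 0.370 times in Runx3 libraries 1, 3 and 4. Every Runx3 library lay below every control, although Runx3 3 and control 4 were close, and the ratio was highest in controls 1 and 2, both of set 1. How often other neighbouring peaks of the table separate the groups in this way was not counted, so the order is a description only.

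The same ratio for Cdkn2 peak 4 over Cdkn2 peak 5 ran from 0.541 to 0.857 in controls and from 0.457 to 0.723 with Runx3, and for Cdkn1b peak 5 over Cdkn1b peak 2 from 0.766 to 0.970 and from 0.796 to 0.836. In both pairs the groups overlapped.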
